A study of Mus musculus with 8 samples.

Results

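Mouse astrocytes kept for 5 days in a culture that the labels call MGS, and that the sample descriptions call soft, were compared with astrocytes kept for 5 days in conventional culture (CV), described as hard. Sample titles chose 4 of the 8 libraries of the series for this comparison, 2 in MGS and 2 in CV. The other 4 libraries are the same cultures at day 32. They entered the choice of genes tested, the estimate of spread and the test of whether a difference at day 5 differed from the difference at day 32. All groups were labelled mouse astrocyte, and no transgene, drug or other agent was named for any of them. The letters MGS, the strain, age and brain region of the animals and the medium are not given in the sources used here. Nor do the labels say whether replicates were separate cultures, so each p-value speaks for the scatter among these libraries alone, and that scatter may be technical.

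Astrocytes feed and insulate neurons: they clear glutamate and potassium, store glycogen, carry lipid and supply antioxidants. Cells grip their surroundings through integrins and read stiffness as tension on actin, and that tension is known to feed into the contractile apparatus and the ERK kinase cascade. Conventional culture is known for flat, dividing astrocytes, and softer settings for branched ones.

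Abundance is given as TPM, a transcript level corrected for transcript length that sums to the same total in every library. Differences are MGS minus CV in log2(TPM + 1), where the added 1 shrinks the change of weakly expressed genes, and SE is the standard error from limma. A gene was called, and is said to have risen or fallen in MGS, at an adjusted p under 0.05 in limma with Benjamini-Hochberg adjustment over all 14866 genes tested, out of 23401 gene IDs. The MGS libraries held 3.90 and 4.36 gigabases of aligned sequence and the CV libraries 2.99 and 2.50. The SD of the log2 difference between replicates was 0.195 in MGS and 0.325 in CV, so CV was both shallower and noisier.

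Among the astrocyte markers checked, 6 of 12 rose in MGS, 2 fell (Fgfr3 and Aldh1l1) and the rest were not called. Their summed level was 17115 and 17321 TPM in MGS and 3636 and 3868 TPM in CV, so both cultures held astrocyte transcripts. Gfap alone gave 13723 and 13744 TPM of the sums in MGS and 1657 and 1540 TPM of those in CV. Markers of other cells also differed. Of the meningeal fibroblast markers 12 of 12 rose (summed level 12424 and 14319 TPM in MGS, 392 and 371 in CV). Choroid plexus markers rose for 8 of 9 (12723 and 17135 against 172 and 173, most of it Ttr), and Otx2 fell (log2 difference -0.90). Ependymal markers rose for 8 of 8 (629 and 652 against 211 and 196) and microglial markers for 11 of 12 (603 and 609 against 99.3 and 117). Oligodendrocyte markers rose for 8 of 9 (1527 and 1581 TPM against 115.3 and 109.6), endothelial markers for 6 of 10, with Kdr falling (240.5 and 236 against 53.0 and 66.9), and mural cell markers for 5 of 6 (257 and 259.7 against 46.5 and 47.8). Neuronal markers summed to 61.8 and 64.8 TPM in MGS and 133 and 148 in CV, with 4 of 8 risen and Stmn2 and Syt1 fallen. Precursor markers of the oligodendrocyte lineage summed to 295 and 306 against 688 and 631, with 4 of 7 markers risen and Olig1 and Olig2 fallen. In CV the defining markers Mog, Opalin, Gpr17, Tie1, Tmem212, Kl and Slc22a6 were listed at 0, while each microglial marker was above 0 in at least 1 CV library. The part of these cells in the results below was not tested, and in bulk RNA more cells of a type and more RNA per cell cannot be told apart.

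Of the 14866 genes, 7277 were called (49%): 3341 rose in MGS (22.5%) and 3936 fell (26.5%). At least 2-fold calls numbered 3498, and among them rises outnumbered falls, 1877 to 1621. The median of all genes was -0.14, and it was 0.03 after median-of-ratios scaling, where 54.4% of calls were rises in place of 45.9%. Rises were also the larger share from FPKM (51.7%), without CV replicate 2 (54.9%) and without either MGS library (54.2%). The median difference also ran with transcript length, from 0.11 in the eighth of genes with the shortest transcripts (median 1009 bases) to -0.49 in the eighth with the longest (median 7786 bases). The count of calls was 4551 without MGS replicate 1, 4518 without MGS replicate 2, 4962 without CV replicate 2, and 10066 and 10070 without a CV library of day 32. Below, a value given without a library leaves out that 1 library, of day 5 unless day 32 is named, and "without either" means that each of the pair was left out in turn. In the test of the difference between the days 9226 genes (62.1%) were called.

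**Figure D1:**
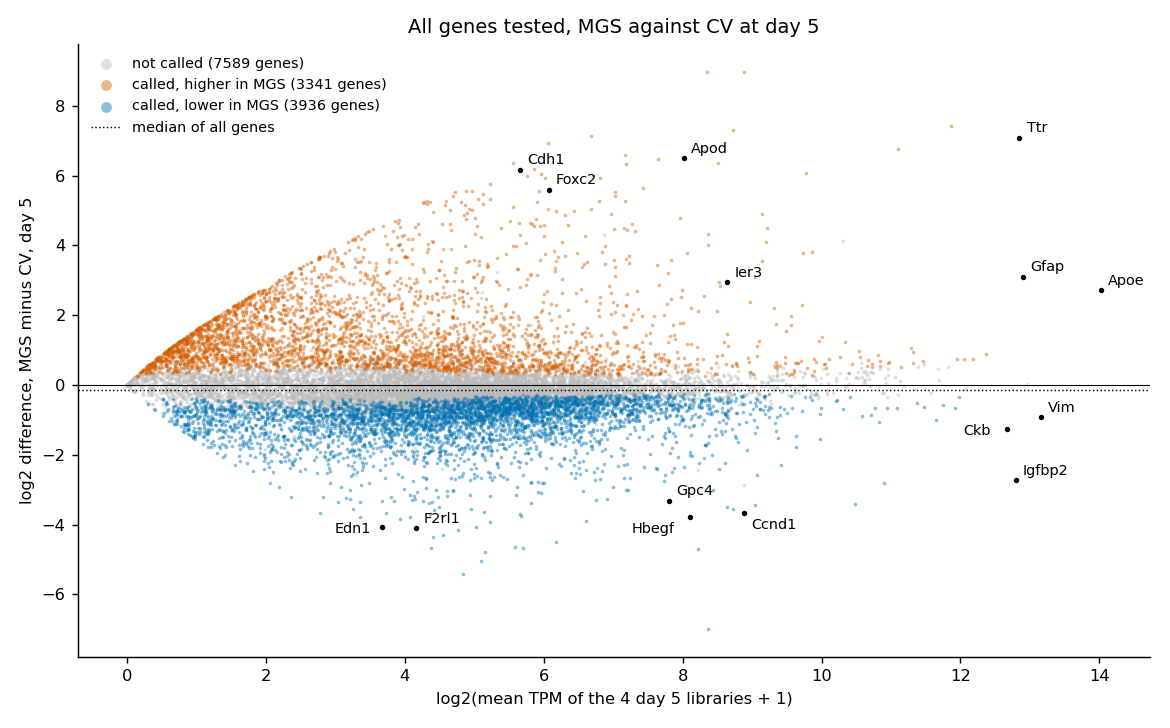
Each point is 1 of the 14866 genes tested: the x axis is log2 of the mean TPM of the 4 day 5 libraries plus 1, and the y axis is the log2 difference, MGS minus CV. Colours mark the 3341 rises, 3936 falls and the genes not called; the dotted line is the median of all genes (-0.14), and the points reach further above 0 than below it.

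Of the 5 most abundant transcripts of each culture 1, Eef1a1, was shared. In MGS they were Apoe, the main lipid carrier that astrocytes secrete, Ttr, the thyroxine carrier transthyretin, Gfap, the astrocyte intermediate filament protein, Eef1a1, a translation elongation factor, and Ptgds, prostaglandin D synthase. In CV they were Igfbp2, a binding protein of insulin-like growth factors, Vim, the filament protein vimentin, Ckb, brain creatine kinase, Eef1a1, and Actb, cytoplasmic actin. Apoe (chr7:19696244-19699166, in the coordinates of the deposited files, mm10) stood at 28785 and 28950.0 TPM in MGS and 5218 and 3712 in CV (log2 difference 2.71, SE 0.20, adjusted p = 3.27e-05). Both MGS libraries lay far above both CV libraries. Igfbp2 went the other way, at 1880.0 and 1776 TPM in MGS and 14859 and 9887 in CV (log2 difference -2.73, SE 0.21, adjusted p = 4.54e-05), with the CV libraries themselves far apart. Ckb stood at 3855 and 3699 TPM in MGS and 10576 and 7877 in CV (log2 difference -1.27, SE 0.17, adjusted p = 0.000812). Vim (-0.92) and Actb (-0.66) fell by less, and neither was called after median-of-ratios scaling (adjusted p = 0.0815 and 0.123). Eef1a1 was not called, at 7935 and 8089.8 TPM in MGS and 8175 and 7537 in CV (log2 difference 0.03, SE 0.12, adjusted p = 0.849), and its sign turned under some settings.

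The largest rises outside the marker lists, leaving out genes already known to lead this comparison, came from genes of several kinds. Apod, the lipid-binding apolipoprotein D (chr16:31296192-31314596), stood at 518 and 505 TPM in MGS and 4.83 and 4.54 in CV (log2 difference 6.49, SE 0.10, adjusted p = 3.04e-07). Mgp, matrix Gla protein, an inhibitor of calcification, stood at 403 and 385 TPM in MGS and 2.69 and 4.30 in CV (log2 difference 6.48, SE 0.19, adjusted p = 8.08e-07). Ifitm1, an interferon-induced membrane protein, stood at 758 and 684 TPM in MGS and 8.28 and 7.21 in CV (log2 difference 6.37, SE 0.14, adjusted p = 5.99e-07). In all 3 genes the MGS replicates were close together and the CV libraries held a few TPM. Other secreted products were the hyaluronan-binding Itih2 (113 against 0.557 TPM, 6.20), the lipoprotein lipase inhibitor Angptl4 (221 against 2.64 TPM, 5.93), the lipopolysaccharide-binding protein Lbp (336 against 5.78 TPM, 5.64) and the collagen Col26a1 (205 against 2.32 TPM, 5.99). Membrane proteins were the gap junction connexin Gjb2 (286 against 2.57 TPM, 6.33), E-cadherin (Cdh1, 98.2 against 0.382 TPM, 6.17), the sulfate transporter Slc13a4 (126 against 1.07 TPM, 5.95), the organic anion transporter Slc22a8 (56.6 against 0.220 TPM, 5.56) and the asialoglycoprotein receptor subunit Asgr1 (60.4 against 0.315 TPM, 5.55). The transcriptional regulators were Foxc2 (131 against 1.73 TPM, 5.601) and Eya2 (118 against 1.51 TPM, 5.57). The SEs of these 14 genes lay between 0.10 and 0.25, and in each of them the libraries of the cultures did not overlap, which the rule for naming them required.

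The largest falls by the same rule were smaller than the rises and held several secreted signals. Wbscr17, of the family of enzymes that start mucin-type O-glycans, stood at 1.89 and 1.88 TPM in MGS and 48.9 and 51.6 in CV (log2 difference -4.15, SE 0.19, adjusted p = 4.09e-06). F2rl1, the protease-activated receptor PAR2, stood at 0.919 and 1.01 TPM in MGS and 31.4 and 34.6 in CV (log2 difference -4.11, SE 0.23, adjusted p = 9.66e-06). Edn1, the vasoconstrictor endothelin-1, stood at 0.536 and 0.286 TPM in MGS and 20.1 and 25.9 in CV (log2 difference -4.08, SE 0.24, adjusted p = 1.37e-05). All 3 were under 2 TPM in both MGS libraries and above 20 TPM in both CV libraries. Other secreted or shed products that fell were Npvf, a neuropeptide precursor (3.65 against 69.3 TPM, -3.92), Fgfbp3, which binds fibroblast growth factors (11.1 against 182 TPM, -3.91), Fst, the activin antagonist follistatin (1.28 against 30.4 TPM, -3.78), and Hbegf, an EGF receptor ligand (36.2 against 512 TPM, -3.78). Inside the cell, the Ras-like GTPase Diras2 (2.58 against 60.2 TPM, -4.08), the adaptor Sh2d4a (0.385 against 18.2 TPM, -3.78), the Rac-inactivating Arhgap22 (2.18 against 42.3 TPM, -3.77), calponin (Cnn1, 6.01 against 94.3 TPM, -3.77), the pro-apoptotic Pmaip1 (1.92 against 37.2 TPM, -3.71) and cyclin D1 (Ccnd1, 67.3 against 872 TPM, -3.67) fell. H60b, a ligand of a receptor on natural killer cells, was at 1.10 and 0.855 TPM in MGS and 22.2 and 33.0 in CV (log2 difference -3.83, SE 0.45, adjusted p = 0.000373), the widest SE of the falls.

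**Figure D2:**
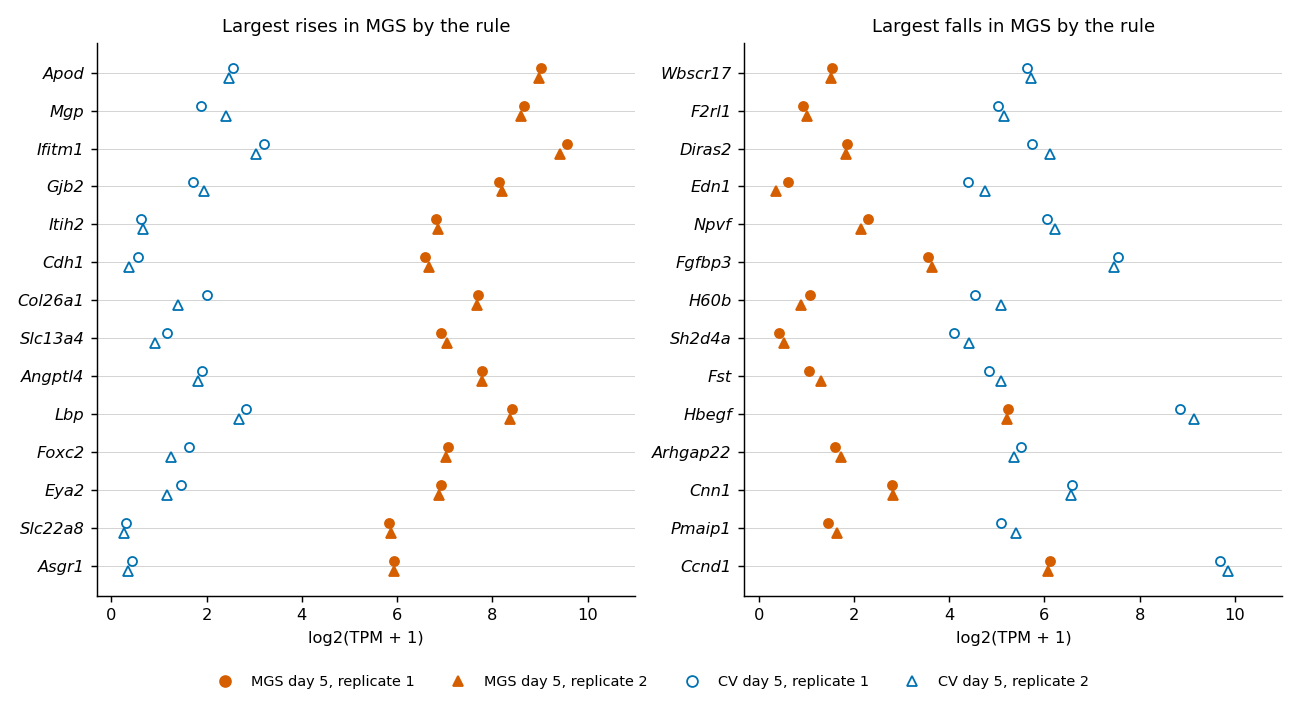
The x axes are log2(TPM + 1) in each of the 4 day 5 libraries; filled orange symbols are MGS, open blue symbols CV, circles replicate 1 and triangles replicate 2. Left are 14 of the largest rises, from Apod (6.49) down to Asgr1 (5.55), and right 14 of the largest falls, from Wbscr17 (-4.15) to Ccnd1 (-3.67).

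Genes on the list of ERK feedback and output, which the cascade switches on and only some of which brake it, were almost uniformly lower in MGS. Of the 26 tested, 24 fell (92.3%, beside 26.5% of all genes) and 2 rose, with a median of -1.67 against -0.14 over all genes. The growth factor ligand Hbegf stood at 36.4 and 36.0 TPM in MGS and 459 and 565 in CV (log2 difference -3.78, SE 0.16, adjusted p = 3.3e-06). Cyclin D1, which moves cells into the cycle in answer to growth factors, stood at 68.0 and 66.6 TPM in MGS and 822 and 922 in CV (log2 difference -3.67, SE 0.15, adjusted p = 2.11e-06). For both genes the lower CV library held more than 10 times the MGS level. The chromatin protein Hmga2 (3.72 against 42.8 TPM, -3.19, SE 0.30) and the ephrin receptor Epha2 (8.81 against 86.1 TPM, -3.15, SE 0.19) fell by similar amounts.

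Several negative feedback genes of the cascade fell with its targets. Errfi1, an inhibitor of the EGF receptor that is not on this list, rose (1.72, SE 0.21). Dusp6, a phosphatase that inactivates ERK, stood at 51.6 and 49.6 TPM in MGS and 176 and 192 in CV (log2 difference -1.84, SE 0.20, adjusted p = 0.000275). Dusp4, a related phosphatase, was at 3.33 against 25.7 TPM (-2.62, SE 0.29), and Spry4, a Sprouty inhibitor of receptor signalling, at 4.40 against 33.3 TPM (-2.66, SE 0.24). The ETS factors that ERK induces also fell, Etv5 at 22.3 and 23.2 TPM in MGS and 142 and 159 in CV (log2 difference -2.67, SE 0.16, adjusted p = 1.48e-05) and Etv4 (11.8 against 49.5 TPM, -1.98, SE 0.12). The exceptions were Ier3, an early response gene that modulates survival and ERK dephosphorylation, and Phlda1, a pleckstrin-homology protein. Ier3 stood at 727 and 684 TPM in MGS and 90.3 and 90.9 in CV (log2 difference 2.95, SE 0.09, adjusted p = 8.59e-07). Phlda1 stood at 86.0 and 84.1 TPM in MGS and 47.4 and 48.6 in CV (log2 difference 0.81, SE 0.13, adjusted p = 0.00152), and once transcript length and GC content were corrected for it was not called (0.40, adjusted p = 0.128). The test of the difference between the days called 24 of the 26 genes, beside 62.1% of all genes. At day 32, 13 of the 26 were called lower in MGS and 6 higher.

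**Figure D3:**
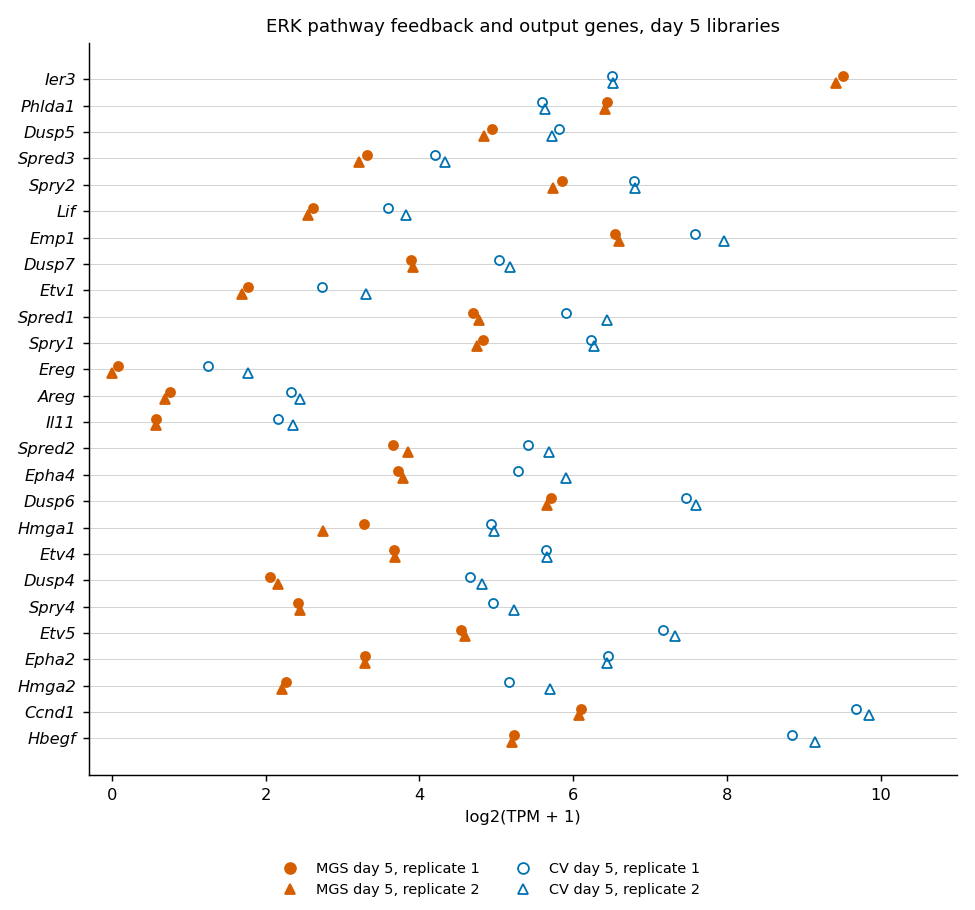
The x axis is log2(TPM + 1) for each of the 26 ERK feedback and output genes, in the 4 day 5 libraries; orange is MGS, open blue is CV, circles are replicate 1 and triangles replicate 2. The blue symbols lie to the right of the orange ones in all genes but Ier3 and Phlda1.

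Genes that build the machinery of protein synthesis were lower in MGS. Ribosome biogenesis factors, which make and process ribosomal RNA in the nucleolus, fell for 30 of 37 (81.1%) and rose for 0. The shares of all genes were 26.5% fallen and 22.5% risen, and the median of the list was -0.75. The processome component Utp20 fell furthest, at 6.28 and 6.84 TPM in MGS and 20.7 and 28.0 in CV (log2 difference -1.73, SE 0.20, adjusted p = 0.000355). The box C/D core protein Nop58 (56.2 against 148 TPM, -1.36, SE 0.25), Wdr12 of the large-subunit assembly complex (13.1 against 31.7 TPM, -1.21, SE 0.16) and Rrp12 (10.6 against 24.2 TPM, -1.12, SE 0.15) followed. The ribosomal RNA methyltransferase Nop2 was at 30.9 against 64.4 TPM, the assembly factor Tsr1 at 18.6 against 39.95 TPM, and Rrn3, which recruits RNA polymerase I, at 28.4 against 57.3 TPM, with differences of -1.04, -1.06 and -0.98. The count of falls was 15 without MGS replicate 2, 17 without CV replicate 2 and 19 without MGS replicate 1, and that of rises 1 from FPKM, after median-of-ratios scaling, from the day 5 libraries alone and after quantile normalization.

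Enzymes that load amino acids onto tRNA showed the same direction. Of 23 tested, 16 fell (69.6%) and 0 rose, beside 26.5% and 22.5% of all genes, with a median of -0.60. Eef1e1, a scaffold protein of the multi-synthetase complex, stood at 32.5 and 29.3 TPM in MGS and 73.3 and 90.1 in CV (log2 difference -1.37, SE 0.17, adjusted p = 0.0005). Nars, for asparagine, stood at 95.2 and 95.6 TPM in MGS and 171 and 207 in CV (log2 difference -0.97, SE 0.16, adjusted p = 0.00202), and Rars, for arginine, at 57.7 against 106 TPM (-0.86, SE 0.12). Aars, for alanine, was at 72.4 and 66.7 TPM in MGS and 125 and 121 in CV (-0.81, SE 0.13), Gars, for glycine, at 71.9 against 117 TPM (-0.69, SE 0.11) and Tars, for threonine, at 53.6 against 86.9 TPM (-0.69, SE 0.11). In each of them both CV libraries lay above both MGS libraries. The count of falls was 9 without MGS replicate 2, and calls ended for Iars without either MGS library or CV replicate 2 (adjusted p = 0.0829 to 0.1).

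Of 33 constitutive subunits of the proteasome 16 fell (48.5%) and 0 rose, beside 26.5% and 22.5% of all genes, with a median of -0.33. The lid subunit Psmd12 (91.1 against 150.2 TPM, -0.71, SE 0.14) and the ATPase subunits Psmc3 (293 against 465 TPM, -0.66, SE 0.11) and Psmc1 (182 against 289 TPM, -0.66, SE 0.13) were among them, as was Psmd11 (72.7 against 119.6 TPM, -0.70, SE 0.24). This count was 5 without MGS replicate 2, 6 without MGS replicate 1, 7 after median-of-ratios scaling and 9 without CV replicate 2. Calls ended for Psmd11 without either MGS library, either CV library or either MGS Day 32 library, with length and GC corrected and with no filter (adjusted p = 0.0597 to 0.214) and Psmc3 after median-of-ratios scaling (adjusted p = 0.0945).

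The promoters of the members of all lists were read for short motifs, from 250 bases before to 50 after each RefSeq transcription start in the build GRCm38.p6. The windows shown hold the motif in capitals, in the letters given or as their reverse complement, and were chosen from genes that fell. The element TGATGNAA, on either strand, which the amino acid stress factor ATF4 is known to bind, was in 5 of 16 promoters of tRNA synthetase genes (31.2%; Aars, Gars, Iars, Tars and Yars, all lower in MGS). It was in 3.97% of all 32851 promoters and 2.25% of the 13794 promoters of tested genes. Ribosome biogenesis promoters held it in 2.5% and proteasome promoters in 3.45%. Its share was also above that of tested genes in lists without a shared direction. Such lists were amino acid transporters (4 of 31, 12.9%) and pumps and exchangers (3 of 36, 8.33%). The antioxidant element TGACNNNGC was in as many tRNA synthetase promoters (5 of 16, 31.2%), beside 12.4% of all promoters and 14.2% of those of tested genes. The first base of the ATF4 element lies 30 bases before the start in Gars, 112 in Aars and 15 in Tars.
Gars, chr6:55037941-55038000, plus strand: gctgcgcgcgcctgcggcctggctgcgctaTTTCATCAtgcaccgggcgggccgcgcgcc
Aars, chr8:111033704-111033763, plus strand: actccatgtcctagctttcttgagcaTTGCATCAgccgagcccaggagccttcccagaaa
Tars, chr15:11399659-11399718, minus strand: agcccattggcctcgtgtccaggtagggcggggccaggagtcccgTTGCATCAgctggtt
The E-box CACGTG, the same on both strands and known as a site of MYC and of the USF and clock factors, was in 8 of 40 promoters of ribosome biogenesis genes (20%) and 4 of 16 of tRNA synthetase genes (25%), against 7.15% of all promoters and 9.46% of those of tested genes. It was also found in lists without a shared direction, such as basement membrane genes (6 of 28, 21.4%), clock genes (17.2%) and glycogen genes (17.4%), and was in 3.45% of proteasome promoters. It begins 60 bases before the start in Nop2 and 215 in Rrn3.
Nop2, chr6:125131796-125131855, plus strand: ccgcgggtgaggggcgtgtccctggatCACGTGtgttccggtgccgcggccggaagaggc
Rrn3, chr16:13780457-13780516, plus strand: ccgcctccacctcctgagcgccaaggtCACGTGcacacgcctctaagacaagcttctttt
No window shown holds an overlap of these motifs. A match describes letters and is not a measured site.

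**Figure D4:**
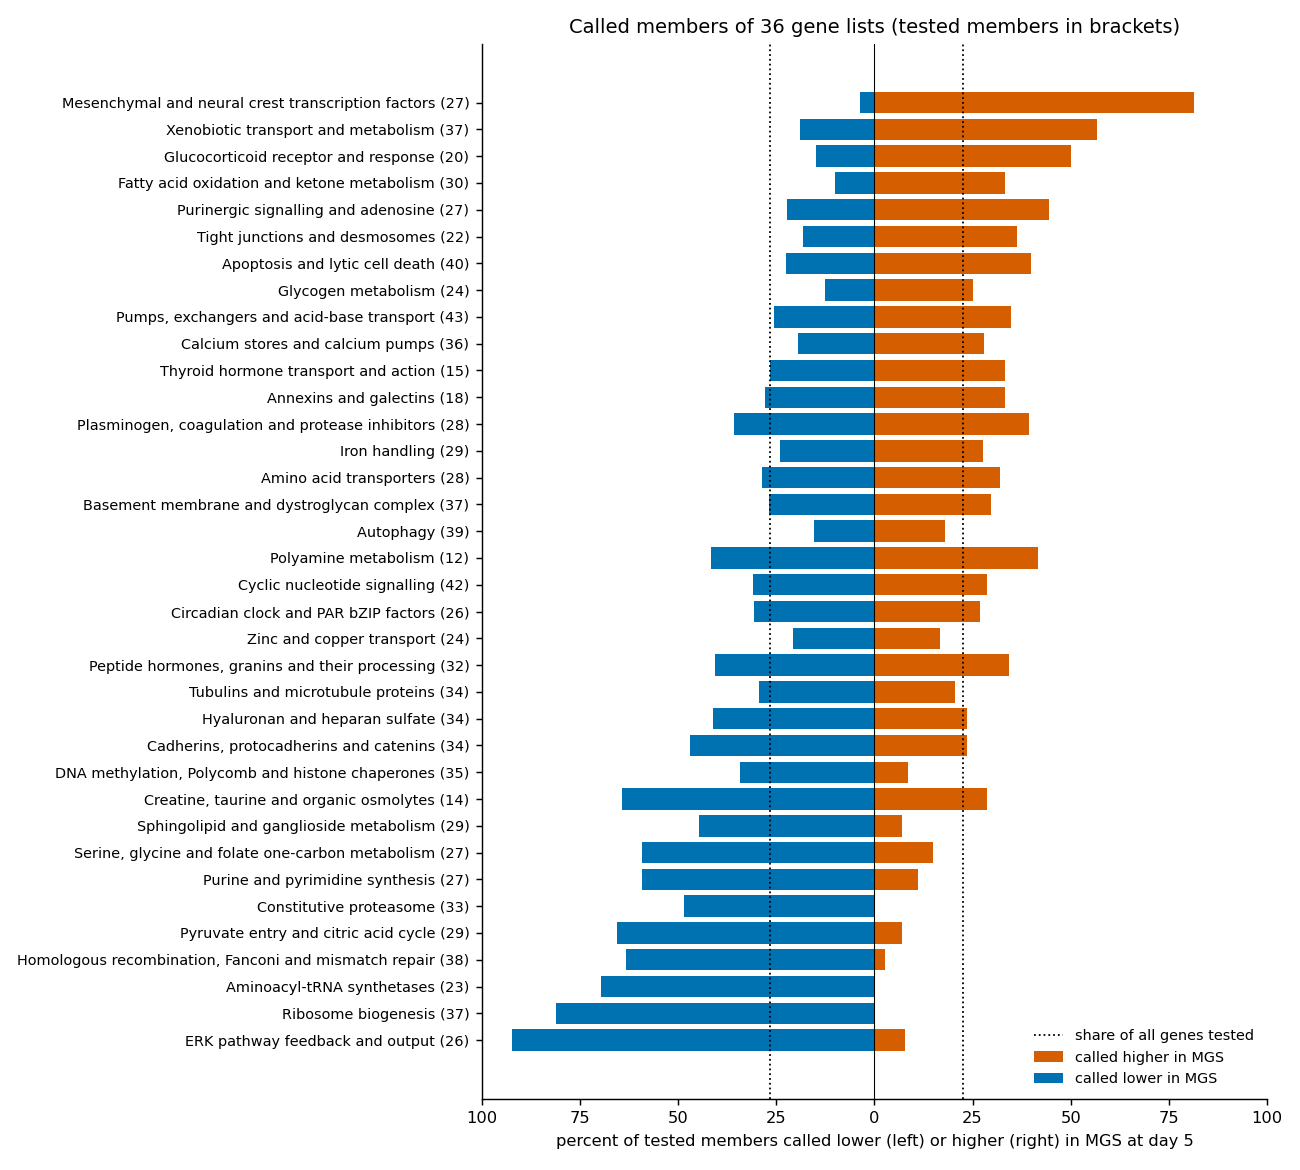
Bars give the percent of the tested members of each of 36 gene lists that rose in MGS (orange, right) or fell (blue, left) at day 5; the number tested is in brackets and the dotted lines are the shares of all genes, 22.5% and 26.5%. ERK output (92.3% fell) and ribosome biogenesis (81.1% fell) have the longest blue bars and mesenchymal transcription factors (81.5% rose) the longest orange bar.

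Genes of DNA repair by recombination, which dividing cells use at broken or stalled replication forks, were lower in MGS. Of 38 tested 24 fell (63.2%, beside 26.5% of all genes) and 1 rose, Fance, with a median of -0.84. Brca1 stood at 3.43 and 3.31 TPM in MGS and 12.8 and 16.6 in CV (log2 difference -1.84, SE 0.23, adjusted p = 0.000527), and its partner Bard1 at 3.01 against 9.93 TPM (-1.44, SE 0.16). The recombination motor Rad54l stood at 6.84 and 5.86 TPM in MGS and 17.8 and 20.6 in CV (log2 difference -1.46, SE 0.17, adjusted p = 0.000403), Brca2 at 1.73 against 4.35 TPM (-0.96, SE 0.18) and the nuclease Exo1 at 2.91 against 10.7 TPM (-1.58, SE 0.17). Fance, of the Fanconi core complex, was at 32.6 against 18.2 TPM (0.83). The count of falls was 14 without MGS replicate 1, and calls ended for Fance without either MGS library (adjusted p = 0.0546 to 0.0606).

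Chromatin genes changed in both directions. Of 35 genes of DNA methylation, Polycomb and histone chaperones 12 fell (34.3%) and 3 rose (8.6%), beside 26.5% and 22.5% of all genes. Rises numbered 5 after quantile normalization, 6 from FPKM, 7 with length and GC corrected and 8 after median-of-ratios scaling. Phf19, a Polycomb targeting subunit, stood at 9.70 and 8.78 TPM in MGS and 35.4 and 37.8 in CV (log2 difference -1.88, SE 0.18, adjusted p = 0.000145). Ezh2, the Polycomb histone methyltransferase of dividing cells, was at 35.7 and 31.5 TPM in MGS and 79.0 and 106 in CV (log2 difference -1.42, SE 0.22, adjusted p = 0.00148). Its relative Ezh1, known from non-dividing cells, was at 19.1 and 20.3 TPM in MGS and 7.83 and 8.87 in CV (log2 difference 1.15, SE 0.20, adjusted p = 0.00285), so this pair of enzymes ran in opposite directions. The maintenance methyltransferase Dnmt1 (52.2 against 114 TPM, -1.12, SE 0.22), its recruiter Uhrf1 (41.8 against 109.7 TPM, -1.37, SE 0.25) and the remodeller Hells (8.23 against 30.6 TPM, -1.74, SE 0.32) fell. The Polycomb repressive complex subunits Ring1 (45.6 against 26.8 TPM, 0.75, SE 0.13) and Pcgf2 (43.4 against 24.1 TPM, 0.82, SE 0.11) rose.

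The E2F motifs TTTCCCGC and TTTGGCGC, read on both strands and bound by the factors that open S phase, were in 6 of 30 promoters of the repair list (20%) and 5 of 39 of the chromatin list (12.8%), against 1.56% of all promoters and 2.65% of those of tested genes. Of the 6 repair genes with the motif 4 fell, and Fancg and Chek2 were not called. The E2F motifs were also above the share of tested genes in pumps and exchangers (3 of 36, 8.33%), a list without a shared direction. So they were in ribosome biogenesis (7.5%) and proteasome promoters (6.9%). The letters CCAAT, also read, were in 21 of 30 repair promoters (70%), beside 37.4% of those of tested genes. None of the 24 promoters of ERK feedback and output genes held the E2F motifs, the E-box or the ATF4 element. The windows below come from genes that fell, with the E2F motif in capitals as before.
Bard1, chr1:71103148-71103207, minus strand: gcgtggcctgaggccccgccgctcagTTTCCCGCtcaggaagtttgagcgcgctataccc
Brca2, chr5:150522427-150522486, plus strand: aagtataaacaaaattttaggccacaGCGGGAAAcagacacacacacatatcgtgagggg
Phf19, chr2:34914151-34914210, minus strand: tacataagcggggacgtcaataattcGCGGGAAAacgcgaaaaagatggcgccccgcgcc
Hells, chr19:38930902-38930961, plus strand: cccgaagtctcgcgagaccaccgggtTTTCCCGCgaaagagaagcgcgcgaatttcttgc

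Genes that supply nucleotides and folate-borne carbon were lower in MGS as well. Of 27 purine and pyrimidine synthesis genes 16 fell (59.3%) and 3 rose (11.1%), beside 26.5% and 22.5% of all genes, with a median of -0.70. Umps, the last step of uridine monophosphate synthesis, stood at 17.8 and 18.4 TPM in MGS and 63.4 and 68.1 in CV (log2 difference -1.81, SE 0.13, adjusted p = 3.26e-05). The salvage kinase Dck (11.6 against 38.6 TPM, -1.65, SE 0.28) and the ribonucleotide reductase subunit Rrm1 (57.0 against 168 TPM, -1.54, SE 0.15) fell as well. The rises were Adssl1, the muscle-type adenylosuccinate synthase, at 8.87 and 8.73 TPM in MGS and 1.40 and 0.901 in CV (log2 difference 2.20, SE 0.16, adjusted p = 3.73e-05), and the guanine nucleotide enzymes Impdh1 (25.5 against 12.5 TPM, 0.98) and Impdh2 (128 against 99.9 TPM, 0.36). Of 27 serine, glycine and folate genes 16 fell (59.3%) and 4 rose (14.8%), with a median of -0.73. Cth, which makes cysteine from cystathionine, stood at 1.35 and 1.61 TPM in MGS and 15.4 and 19.1 in CV (log2 difference -2.87, SE 0.20, adjusted p = 2.63e-05), the glycine decarboxylase Gldc at 19.2 against 75.3 TPM (-1.91, SE 0.20), mitochondrial Mthfd2 at 15.001 against 58.4 TPM (-1.89, SE 0.16) and methionine synthase Mtr at 7.64 against 27.2 TPM (-1.70, SE 0.18).

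All but 1 of the rises in the folate list were genes that bring folate into the cell. The carrier Slc19a1 was at 42.2 and 41.4 TPM in MGS and 16.0 and 15.4 in CV (log2 difference 1.36, SE 0.12, adjusted p = 0.000108), the receptor Folr1, also a choroid plexus marker, at 73.4 against 27.1 TPM (1.40) and the proton-coupled carrier Slc46a1 at 17.5 against 12.2 TPM (0.48). The other was Mthfd1l, which makes formate in mitochondria (27.6 against 15.8 TPM, 0.77). Calls ended for Slc46a1 without either MGS library, either CV library or either MGS Day 32 library and with length and GC corrected (adjusted p = 0.0892 to 0.724), Mthfd1l without either MGS library or CV replicate 1 (adjusted p = 0.0524 to 0.0769) and Impdh2 without either MGS library, either CV library or either MGS Day 32 library and with length and GC corrected (adjusted p = 0.0501 to 0.513). Rises in the folate list numbered 2 without either MGS library or CV replicate 1. The count of falls in the purine and pyrimidine list was 10 without MGS replicate 2.

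Of 29 genes of pyruvate entry and the citric acid cycle 19 fell (65.5%) and 2 rose (6.9%), beside 26.5% and 22.5% of all genes. The median was -0.55. Idh3a, a subunit of the cycle's isocitrate dehydrogenase, stood at 67.6 and 72.3 TPM in MGS and 158 and 191 in CV (log2 difference -1.30, SE 0.20, adjusted p = 0.00138). Pcx, pyruvate carboxylase, which in brain is an astrocyte enzyme that refills the cycle, stood at 60.4 and 60.7 TPM in MGS and 149.8 and 144 in CV (log2 difference -1.26, SE 0.15, adjusted p = 0.000358). Pdk1, the kinase that shuts pyruvate dehydrogenase, rose, at 38.8 and 39.3 TPM in MGS and 10.2 and 12.044 in CV (log2 difference 1.73, SE 0.17, adjusted p = 0.000145), and Dlat, a core subunit of that dehydrogenase, fell (27.3 against 55.7 TPM, -0.99, SE 0.23). The pyruvate carrier subunit Mpc2 was at 136 against 113 TPM (0.26). The count of falls was 10 without either MGS library and 11 without CV replicate 2, that of rises 1 without either MGS library, either CV library or either MGS Day 32 library and with a replicate block, and calls ended for Dlat without either MGS library or CV replicate 2 (adjusted p = 0.0588 to 0.0758) and Mpc2 without either MGS library, either CV library or either MGS Day 32 library, after median-of-ratios scaling and with a replicate block (adjusted p = 0.0557 to 0.221).

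Of 30 fatty acid oxidation and ketone genes 10 rose (33.3%) and 3 fell (10%), beside 22.5% and 26.5% of all genes. The median was 0.06, and the summed level was 3313.0 and 3315.2 TPM in MGS and 3153.4 and 3406.7 in CV. Angptl4, which restrains fatty acid release from lipoproteins, is among the largest rises above. Oxct1, which lets a cell burn ketone bodies, stood at 102 and 104 TPM in MGS and 452 and 542 in CV (log2 difference -2.25, SE 0.16, adjusted p = 3.44e-05). Both CV libraries lay far above both MGS libraries. Ppargc1a, a coactivator of mitochondrial genes (5.62 against 18.0 TPM, -1.49, SE 0.26), and Hadhb of the trifunctional protein (105 against 156 TPM, -0.56) were the other falls. The count of rises was 5 without either MGS library and 16 after quantile normalization, that of falls 5 without either CV Day 32 library, from the day 5 libraries alone, after quantile normalization and with a replicate block, and calls ended for Hadhb without either MGS library or CV replicate 2 and with length and GC corrected (adjusted p = 0.0607 to 0.0837).

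Glycogen is the glucose store that brain keeps mainly in astrocytes. Of 24 genes of its metabolism 6 rose (25%, beside 22.5% of all genes) and 3 fell (12.5%, beside 26.5%). Phkg1, a catalytic subunit of phosphorylase kinase, stood at 30.7 and 32.6 TPM in MGS and 5.53 and 5.19 in CV (log2 difference 2.36, SE 0.13, adjusted p = 9.66e-06). The muscle-type phosphorylase Pygm was at 15.9 and 14.5 TPM in MGS and 3.25 and 2.89 in CV (log2 difference 1.99, SE 0.15, adjusted p = 3.73e-05) and the liver type Pygl at 12.979 against 4.98 TPM (1.22, SE 0.20). Ppp1r3g, a glycogen-targeting phosphatase subunit, was at 2.77 against 0.428 TPM (1.41, SE 0.15). Among the falls were the primer glycogenin (Gyg, 59.6 against 115 TPM, -0.93) and the kinase subunit Phka1 (6.58 against 12.2 TPM, -0.79). Rises numbered 10 after median-of-ratios scaling, and falls 1 without either MGS library or CV replicate 2, 5 with a replicate block, 6 from the day 5 libraries alone and after quantile normalization and 8 without either CV Day 32 library. Calls ended for Phka1 without either MGS library or CV replicate 2 (adjusted p = 0.0867 to 0.11).

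Of 29 sphingolipid genes 13 fell (44.8%, beside 26.5% of all genes), 2 rose (6.9%, beside 22.5%) and 14 were not called. Acid ceramidase Asah1 stood at 91.1 and 90.7 TPM in MGS and 229.8 and 309 in CV (log2 difference -1.54, SE 0.29, adjusted p = 0.00369). The sphingomyelin synthase Sgms2 (3.88 against 13.007 TPM, -1.50, SE 0.27) and Galc, which degrades galactosylceramide (34.0 against 94.6 TPM, -1.44, SE 0.20), fell too. The rises were Ugt8a, the myelin enzyme that makes galactosylceramide, at 5.80 and 6.34 TPM in MGS and 0.452 and 0.425 in CV (2.30, SE 0.12), and B4galnt1 of ganglioside synthesis (8.45 against 3.90 TPM, 0.94, SE 0.16). Ugt8a rose in the libraries in which 8 of 9 oligodendrocyte markers rose, and their part in it was not tested. The count of falls was 7 without either MGS library or CV replicate 2, and that of rises 4 without either CV Day 32 library, from the day 5 libraries alone and after quantile normalization and 5 from FPKM and after median-of-ratios scaling.

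Carriers of organic osmolytes, which cells load against water loss, changed in both directions. Slc6a6, the taurine transporter, stood at 24.4 and 24.4 TPM in MGS and 111 and 134 in CV (log2 difference -2.28, SE 0.33, adjusted p = 0.00103). Slc5a3, the inositol transporter, stood at 14.4 and 15.5 TPM in MGS and 62.5 and 87.9 in CV (log2 difference -2.24, SE 0.28, adjusted p = 0.000478). Mitochondrial creatine kinase Ckmt1 was at 1.72 against 6.86 TPM (-1.54, SE 0.18). With brain creatine kinase it brought the falls to 9 of 14 (64.3%), beside 26.5% of all genes. The rises were the betaine carrier Slc6a12, at 4.01 and 4.27 TPM in MGS and listed at 0 in both CV libraries, the creatine synthesis enzyme Gamt (59.0 against 24.9 TPM, 1.22, SE 0.13) and the taurine synthesis enzymes Cdo1 (31.1 against 17.2 TPM, 0.82) and Csad (52.0 against 36.5 TPM, 0.50). Transcripts of taurine synthesis were thus higher and that of its uptake lower. Falls numbered 5 without MGS replicate 2 or CV replicate 2, rises 2 without MGS replicate 2, and calls ended for Csad without either MGS library or either CV library and with length and GC corrected (adjusted p = 0.0546 to 0.164) and Cdo1 without MGS replicate 2 (adjusted p = 0.0534).

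Polyamine genes changed in both directions, with 41.7% risen and 41.7% fallen, beside 22.5% and 26.5% of all genes. Odc1, ornithine decarboxylase, stood at 149 and 146 TPM in MGS and 413 and 396 in CV (log2 difference -1.45, SE 0.09, adjusted p = 1.79e-05), and spermine synthase Sms at 6.85 against 22.2 TPM (-1.55, SE 0.18). The other falls were spermidine synthase (Srm, 103 against 172 TPM, -0.73), Azin1, which protects ornithine decarboxylase (46.7 against 119 TPM, -1.30), and Amd1, whose MGS replicates were far apart at 0.0365 and 2.00 TPM (-2.07). Among the rises were the polyamine oxidases and acetyltransferase and an antizyme, which restrains ornithine decarboxylase: Smox (73.6 against 47.3 TPM, 0.63), Paox (12.6 against 8.67 TPM, 0.49), Sat1 (191 against 149 TPM, 0.36) and the antizyme Oaz2 (170.3 against 112 TPM, 0.61). Arginase (Arg1), which makes the ornithine that feeds polyamine synthesis, rose as well, at 2.77 and 2.89 TPM in MGS and listed at 0 in both CV libraries. Of 12 genes 5 rose and 5 fell, counts that were 2 without MGS replicate 1 and 3 without MGS replicate 2 or CV replicate 1 for rises and 3 without CV replicate 2 for falls. Calls ended for Amd1 without MGS replicate 1 or CV replicate 2 and with a pseudocount of 0.1 (adjusted p = 0.0876 to 0.107), Srm after median-of-ratios scaling (adjusted p = 0.0747), Azin1 without CV replicate 2 (adjusted p = 0.0573), Sat1 without either MGS library or CV replicate 1 (adjusted p = 0.0969 to 0.131), Paox without either MGS library, either CV library or either MGS Day 32 library (adjusted p = 0.0554 to 0.196), Oaz2 with length and GC corrected (adjusted p = 0.103) and Smox without MGS replicate 1 (adjusted p = 0.0535).

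Membrane carriers of amino acids and metals changed in both directions. Among amino acid carriers 32.1% rose and 28.6% fell, beside 22.5% and 26.5% of all genes. Slc6a20a, a proline carrier, was at 33.4 and 39.1 TPM in MGS and listed at 0 in both CV libraries. Slc7a11, the cystine-glutamate exchanger that feeds glutathione synthesis, stood at 37.5 and 39.4 TPM in MGS and 4.76 and 7.29 in CV (log2 difference 2.51, SE 0.20, adjusted p = 5.14e-05). The neutral amino acid carrier Slc38a4 (9.90 against 1.02 TPM, 2.43, SE 0.13) and Slc7a7, an exchanger of basic amino acids (5.75 against 0.818 TPM, 1.89, SE 0.18) also rose. In the list of 28 carriers 9 rose and 8 fell, and the falls numbered 4 without either MGS library and 5 without CV replicate 2.

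Iron genes differed at both ends of the transferrin route. Trf, transferrin, which in brain comes from oligodendrocytes and choroid plexus, stood at 206 and 219.9 TPM in MGS and 13.6 and 14.8 in CV (log2 difference 3.82, SE 0.11, adjusted p = 6.73e-07). Tfrc, its receptor, stood at 23.5 and 23.5 TPM in MGS and 54.8 and 82.9 in CV (log2 difference -1.48, SE 0.25, adjusted p = 0.00248). The ferrireductase Steap3 (89.3 against 8.005 TPM, 3.33, SE 0.13) and ferroportin, the iron exporter (Slc40a1, 11.6 against 3.12 TPM, 1.61, SE 0.21), rose. The list held 8 rises and 7 falls among 29 genes, close to the shares of all genes, and the falls numbered 3 without either MGS library, 4 without CV replicate 2 and 12 without either CV Day 32 library.

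Of 24 zinc and copper genes 4 rose (16.7%) and 5 fell (20.8%), each under the share of all genes (22.5% and 26.5%). The zinc importer Slc39a4 stood at 9.17 and 9.87 TPM in MGS and 2.28 and 1.63 in CV (log2 difference 1.84, SE 0.17, adjusted p = 9.9e-05) and Slc30a10, a manganese exporter of the zinc carrier family, at 7.52 against 1.78 TPM (1.62, SE 0.13). The copper carrier Slc31a2 (31.8 against 14.021 TPM, 1.13, SE 0.16) and the zinc importer Slc39a1 (228 against 159 TPM, 0.52) rose. The falls were Slc39a6 (34.6 against 91.2 TPM, -1.37, SE 0.15), Slc39a12 (50.6 against 94.8 TPM, -0.88), Slc39a13 (51.6 against 88.6 TPM, -0.77), the zinc exporter Slc30a1 (13.3 against 23.0 TPM, -0.74) and the copper pump Atp7b (6.03 against 12.9 TPM, -0.98). Falls numbered 2 without either MGS library or CV replicate 2, 3 without CV replicate 1 or either MGS Day 32 library, 8 with length and GC corrected and 9 without either CV Day 32 library. Calls ended for Slc39a1 without either MGS library or CV replicate 2 and with length and GC corrected (adjusted p = 0.0564 to 0.116), Slc30a1 without either MGS library or CV replicate 2 (adjusted p = 0.0578 to 0.0597), Slc39a12 without either MGS library, either CV library or either MGS Day 32 library and with no filter (adjusted p = 0.0512 to 0.204) and Atp7b without either MGS library, either CV library or either MGS Day 32 library and with a pseudocount of 0.1 (adjusted p = 0.0621 to 0.143).

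Of 37 genes that handle foreign compounds, bile acids and drugs 21 rose (56.8%) and 7 fell (18.9%), beside 22.5% and 26.5% of all genes. The summed level of the list was nonetheless lower in MGS, at 1660.4 and 1650.4 TPM against 2564.5 and 2651.9 in CV. Slc22a8, an organic anion transporter, stood at 55.6 and 57.6 TPM in MGS and 0.238 and 0.201 in CV (log2 difference 5.56, SE 0.14, adjusted p = 6.04e-07). Slc22a6, its relative and a meningeal fibroblast marker, was at 12.5 and 13.9 TPM in MGS and listed at 0 in both CV libraries. The organic cation carriers Slc22a2 (7.30 and 8.19 TPM in MGS, 0.151 and 0 in CV) and Slc22a4 (48.1 against 6.62 TPM, 2.69, SE 0.16) rose too. Slc22a6 and Slc22a8 are known from choroid plexus and meninges, and in the same libraries 12 of 12 meningeal and 8 of 9 choroid plexus markers rose. Their part in the list was not tested.

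Hormone response genes were mixed. In the glucocorticoid list 10 of 20 rose (50%) and 3 fell (15%), beside 22.5% and 26.5% of all genes, with a median of 0.59. Cebpb, a transcription factor that glucocorticoids and cytokines induce, stood at 223 and 197 TPM in MGS and 56.7 and 41.3 in CV (log2 difference 2.09, SE 0.20, adjusted p = 0.000146), and Errfi1, an inhibitor of the EGF receptor, at 73.9 and 76.2 TPM in MGS and 19.9 and 24.4 in CV (log2 difference 1.72, SE 0.21, adjusted p = 0.000439). Sult1a1, a sulfotransferase (18.6 against 1.36 TPM, 3.06, SE 0.14), and the kinase Map3k6 (4.11 against 0.839 TPM, 1.48, SE 0.13) rose. Tsc22d3, the textbook target of the receptor, fell, at 12.002 and 13.9 TPM in MGS and 25.2 and 28.0 in CV (log2 difference -0.98, SE 0.14, adjusted p = 0.000933), as did the receptor itself, Nr3c1 (22.5 against 39.9 TPM, -0.77), and Hsd11b1, which regenerates the hormone (0.790 against 1.77 TPM, -0.62). Rises numbered 6 without MGS replicate 1, falls 1 without either MGS library, and calls ended for Nr3c1 without either MGS library, CV replicate 2 or either MGS Day 32 library, with length and GC corrected and with no filter (adjusted p = 0.0547 to 0.233) and Hsd11b1 without either MGS library or CV replicate 1 (adjusted p = 0.0576 to 0.133).

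The thyroid list held 5 rises and 4 falls among 15 genes, and the falls numbered 7 without either CV Day 32 library and 8 after quantile normalization. The shares of the thyroid list were 33.3% risen and 26.7% fallen, beside 22.5% and 26.5% of all genes. Thrsp, a lipogenic target of the hormone, stood at 169 and 160.4 TPM in MGS and 66.2 and 54.5 in CV (log2 difference 1.44, SE 0.14, adjusted p = 0.000125), and Dio3, which inactivates the hormone, at 3.77 against 0.838 TPM (1.39, SE 0.17). The receptors Thra (189 against 105 TPM, 0.84), Rxra (22.5 against 13.4 TPM, 0.70) and Rxrb (61.4 against 37.003 TPM, 0.72) rose. The falls were Hr, a corepressor and classical brain target of the hormone (8.49 and 8.36 TPM in MGS and 17.8 and 18.2 in CV; -1.01, SE 0.17), the hormone-binding Crym (21.2 against 42.4 TPM, -0.97, SE 0.14), Rxrg (2.45 against 5.44 TPM, -0.89, SE 0.16) and Slco1c1, the thyroxine carrier (22.3 against 41.8 TPM, -0.86). Calls ended for Thra with length and GC corrected (adjusted p = 0.0676), Rxra without either MGS library or either CV library (adjusted p = 0.0528 to 0.106) and Slco1c1 without either MGS library or CV replicate 2 (adjusted p = 0.0979 to 0.153).

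Clock genes differed without a common direction. Of 26 genes 7 rose (26.9%) and 8 fell (30.8%), near the shares of all genes (22.5% and 26.5%). The hour of harvest is not given in the sources used here. Arntl, the core activator BMAL1, stood at 12.1 and 12.2 TPM in MGS and 41.2 and 47.3 in CV (log2 difference -1.78, SE 0.20, adjusted p = 0.000315). Hlf, a PAR bZIP output factor, stood at 21.4 and 23.3 TPM in MGS and 2.27 and 3.46 in CV (log2 difference 2.61, SE 0.22, adjusted p = 8e-05). Rorb, an orphan nuclear receptor of the clock loop, fell (2.85 against 7.91 TPM, -1.21, SE 0.19). The counts were 3 without MGS replicate 1 and 4 without MGS replicate 2 or CV replicate 2 for rises and 3 without MGS replicate 1 or CV replicate 2, 4 without MGS replicate 2 and 5 without either MGS Day 32 library for falls.

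Peptide signals changed in both directions, 11 risen (34.4%) and 13 fallen (40.6%) of 32, beside 22.5% and 26.5% of all genes. The endothelin Edn1 fell as above, and Edn3, the form that guides neural crest cells, stood at 12.8 and 13.5 TPM in MGS and 0.330 and 0.377 in CV (log2 difference 3.38, SE 0.14, adjusted p = 2.76e-06). Agt, angiotensinogen, which astrocytes are the main brain source of, stood at 242 and 230.02 TPM in MGS and 20.1 and 17.8 in CV (log2 difference 3.58, SE 0.13, adjusted p = 1.68e-06). The prohormone convertase Pcsk2 rose from a low level (5.95 against 0.286 TPM, 2.44, SE 0.17).

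Tubulins and microtubule proteins rose for 7 (20.6%) and fell for 10 (29.4%) of 34, near the shares of all genes (22.5% and 26.5%). The isotype Tubb4a, a tubulin of myelinating and neuronal cells, stood at 71.7 and 72.3 TPM in MGS and 14.038 and 12.993 in CV (log2 difference 2.33, SE 0.12, adjusted p = 6.71e-06), and Tubb6 at 218 and 199 TPM in MGS and 593 and 509.7 in CV (log2 difference -1.40, SE 0.11, adjusted p = 6.26e-05). The stathmins, which take tubulin out of polymers, split, with Stmn2 at 13.7 and 16.0 TPM in MGS and 100.87 and 118 in CV (-2.80, SE 0.14) and Stmn4 at 14.2 against 2.29 TPM (2.21, SE 0.29). Falls numbered 6 without either MGS library.

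Cadherins changed in both directions. N-cadherin (Cdh2), the cadherin that joins astrocytes, stood at 52.7 and 54.0 TPM in MGS and 324 and 413 in CV (log2 difference -2.76, SE 0.29, adjusted p = 0.000201). E-cadherin (Cdh1, chr8:106603368-106670246), of epithelia and of the meninges, stood at 95.5 and 100.97 TPM in MGS and 0.479 and 0.284 in CV (log2 difference 6.17, SE 0.16, adjusted p = 6.04e-07). Cdh6 (1.58 against 25.2 TPM, -3.33, SE 0.23) and the protocadherin Pcdh7 (6.55 against 46.5 TPM, -2.63, SE 0.37) fell. In the list of cadherins, protocadherins and catenins 16 of 34 fell (47.1%) and 8 rose (23.5%), beside 26.5% and 22.5% of all genes. Rises numbered 5 without either MGS library and at 5 TPM or more.

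Tight junction and desmosome genes rose for 8 of 22 (36.4%) and fell for 4 (18.2%), beside 22.5% and 26.5% of all genes. Cldn2, a channel-forming claudin of choroid plexus, stood at 14.2 and 17.8 TPM in MGS and 2.53 and 3.42 in CV (log2 difference 2.099, SE 0.23, adjusted p = 0.000263). The 4 falls were Cldn12 (4.39 and 10.5 TPM in MGS and 44.7 and 59.1 in CV; -2.73, SE 0.37), the junctional adhesion molecule Jam2 (37.2 and 37.3 TPM in MGS and 205 and 287 in CV; -2.67, SE 0.24), the plakophilin Pkp2 (6.41 against 30.4 TPM, -2.07, SE 0.23) and periplakin (Ppl, 1.58 against 4.31 TPM, -1.04, SE 0.18). The MGS replicates of Cldn12 were apart, yet both lay below the CV libraries. Rises numbered 5 at 5 TPM or more, and falls 7 with no filter and after quantile normalization.

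Of 37 basement membrane genes 11 rose (29.7%) and 10 fell (27%), near the shares of all genes (22.5% and 26.5%). Fbln1, fibulin-1, stood at 268 and 266 TPM in MGS and 20.8 and 21.0 in CV (log2 difference 3.61, SE 0.12, adjusted p = 1.22e-06), the laminin chain Lama4 of vessels and meninges at 92.0 and 94.2 TPM in MGS and 10.9 and 13.2 in CV (log2 difference 2.86, SE 0.19, adjusted p = 2.38e-05), and the matricellular Smoc1 (71.3 against 14.015 TPM, 2.27, SE 0.14) and Smoc2 (47.0 against 4.04 TPM, 3.25, SE 0.17) rose with them. Falls numbered 5 without either MGS library and 6 without CV replicate 2 or either MGS Day 32 library. Gpc4, the glypican that astrocytes secrete to build synapses, stood at 40.7 and 38.9 TPM in MGS and 402 and 408 in CV (log2 difference -3.31, SE 0.13, adjusted p = 2.31e-06). Gpc3, a glypican of mesenchyme and embryonic tissue, stood at 243 and 250.4 TPM in MGS and 9.34 and 10.9 in CV (log2 difference 4.48, SE 0.12, adjusted p = 6.4e-07). The sulfotransferases Hs3st3b1 (2.88 against 18.4 TPM, -2.32, SE 0.17) and Hs3st3a1 (0.987 against 7.73 TPM, -2.13, SE 0.17) fell together. In the hyaluronan and heparan sulfate list 23.5% rose and 41.2% fell, beside 22.5% and 26.5% of all genes. Of 34 hyaluronan and heparan sulfate genes 8 rose and 14 fell, counts that were 5 without either MGS library and at 5 TPM or more for rises and 7 without MGS replicate 1 or CV replicate 2 and 9 without MGS replicate 2 for falls.

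Genes of plasminogen and coagulation split 11 rises (39.3%) to 10 falls (35.7%) among 28, beside 22.5% and 26.5% of all genes. The receptor F2rl1 is among the largest falls above. Thbd, thrombomodulin, which turns thrombin into an anticoagulant, stood at 150.4 and 159.8 TPM in MGS and 5.68 and 5.39 in CV (log2 difference 4.58, SE 0.23, adjusted p = 6.67e-06), and Serpind1, the thrombin inhibitor heparin cofactor II, at 28.2 and 28.1 TPM in MGS and 0.150 and 0.0642 in CV (log2 difference 4.72, SE 0.15, adjusted p = 1.01e-06). Thrombomodulin is also made by endothelium and meninges, whose markers rose, and their part was not tested.

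Annexins and galectins rose for 6 (33.3%) and fell for 5 (27.8%) of 18, beside 22.5% and 26.5% of all genes. Anxa1, an anti-inflammatory phospholipid-binding protein, stood at 672 and 622 TPM in MGS and 74.2 and 92.9 in CV (log2 difference 2.95, SE 0.15, adjusted p = 6.04e-06), and Anxa3 at 149 and 156 TPM in MGS and 858 and 984 in CV (log2 difference -2.58, SE 0.11, adjusted p = 2.74e-06). Lgals3bp (175 against 14.8 TPM, 3.47, SE 0.15) and Lgals9 (60.5 against 6.78 TPM, 3.003, SE 0.18) rose. Galectin-1 and galectin-3 fell by less (Lgals1, 1692 against 2676 TPM, -0.65; Lgals3, 252 against 428 TPM, -0.76), as did Anxa8 (2.84 against 6.03 TPM, -0.88) and Lgalsl (17.0 against 27.7 TPM, -0.65). Falls numbered 2 without MGS replicate 2, 3 without MGS replicate 1 and after median-of-ratios scaling and 8 without either CV Day 32 library and from the day 5 libraries alone, and calls ended for Anxa8 without MGS replicate 2 (adjusted p = 0.0822), Lgals3 after median-of-ratios scaling (adjusted p = 0.0777), Lgals1 without either MGS library or CV replicate 1, from FPKM and after median-of-ratios scaling (adjusted p = 0.0778 to 0.267) and Lgalsl without either MGS library, CV replicate 2 or either MGS Day 32 library (adjusted p = 0.0664 to 0.187).

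Genes of extracellular nucleotides rose more often than they fell. Entpd2, an ecto-enzyme that strips phosphate from ATP, stood at 106 and 107 TPM in MGS and 2.995 and 3.60 in CV (log2 difference 4.64, SE 0.14, adjusted p = 9.21e-07). Enpp2, autotaxin, which makes the signalling lipid lysophosphatidic acid, stood at 278 and 326 TPM in MGS and 12.016 and 14.7 in CV (log2 difference 4.40, SE 0.20, adjusted p = 4.3e-06), and the adenosine receptor Adora2b rose (14.7 against 1.78 TPM, 2.49, SE 0.16). P2ry2, a receptor for the nucleotides themselves, stood at 2.37 and 2.21 TPM in MGS and 30.9 and 31.1 in CV (log2 difference -3.28, SE 0.16, adjusted p = 5.82e-06). Of 27 genes 12 rose (44.4%) and 6 fell (22.2%), beside 22.5% and 26.5% of all genes.

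Calcium and cyclic nucleotide genes were called at shares near those of all genes. Among adenylyl cyclases Adcy5 stood at 46.9 and 47.9 TPM in MGS and 3.54 and 3.88 in CV (log2 difference 3.36, SE 0.16, adjusted p = 5.49e-06) and Adcy4 at 3.84 against 0.0841 TPM (2.16, SE 0.13), while the calcium-stimulated Adcy1 stood at 5.66 and 5.84 TPM in MGS and 24.8 and 29.5 in CV (log2 difference -2.05, SE 0.18, adjusted p = 9.84e-05). The phosphodiesterase Pde8a rose (8.72 against 1.64 TPM, 1.89, SE 0.33). Among calcium genes the store channel Itpr3 (12.1 and 11.7 TPM in MGS and 2.13 and 1.96 in CV; 2.08, SE 0.20) and the pump Atp2b3 (3.74 against 0.138 TPM, 2.05, SE 0.15) rose, and the store protein Casq1 (11.4 and 11.6 TPM in MGS and 44.8 and 41.4 in CV; -1.82, SE 0.12) and the pump Atp2b4 (14.6 against 39.3 TPM, -1.35, SE 0.30) fell. Of 36 calcium genes 10 rose (27.8%) and 7 fell (19.4%), and of 42 cyclic nucleotide genes 12 rose (28.6%) and 13 fell (31%). The shares of all genes were 22.5% risen and 26.5% fallen. Calcium rises numbered 6 at 5 TPM or more. Falls numbered 4 without CV replicate 2, 12 after quantile normalization, 13 from the day 5 libraries alone and 14 without either CV Day 32 library for calcium and 7 without either MGS library or CV replicate 2 for cyclic nucleotides. Calls ended for Atp2b4 without MGS replicate 1 or CV replicate 2 (adjusted p = 0.0532 to 0.0599).

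Cell death genes rose for 16 of 40 (40%) and fell for 9 (22.5%), beside 22.5% and 26.5% of all genes. The median was 0.01, and the summed level was lower in MGS, at 2017.1 and 2004.6 TPM against 2635.9 and 2397.7 in CV. The largest rises belonged to inflammatory lysis, Casp4, which senses bacterial lipopolysaccharide, at 10.982 and 10.6 TPM in MGS and 0.0683 and 0.195 in CV (log2 difference 3.38, SE 0.15, adjusted p = 3.44e-06), and the pore-former Gsdmd at 23.9 and 22.3 TPM in MGS and 2.16 and 1.12 in CV (log2 difference 3.22, SE 0.20, adjusted p = 1.8e-05). Bmf, a death activator tied to loss of attachment, stood at 12.2 and 13.4 TPM in MGS and 1.63 and 1.55 in CV (log2 difference 2.41, SE 0.17, adjusted p = 3.26e-05). Acsl4, which loads membranes with the lipids of ferroptosis, stood at 1.97 and 2.19 TPM in MGS and 11.4 and 18.2 in CV (log2 difference -2.33, SE 0.32, adjusted p = 0.000865). Rises numbered 9 without MGS replicate 2 and 10 without MGS replicate 1 or CV replicate 2. Casp4 and Gsdmd are also genes of microglia, of whose markers 11 of 12 rose, and this part was not tested.

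Autophagy genes differed little as a list, 7 up and 6 down of 39, each under the share of all genes. Tfeb, the master factor of lysosomes and autophagy, stood at 44.7 and 41.5 TPM in MGS and 18.8 and 16.8 in CV (log2 difference 1.23, SE 0.13, adjusted p = 0.000228), the starting kinase Ulk1 at 37.5 against 22.5 TPM (0.71, SE 0.17), Uvrag at 14.6 against 34.4 TPM (-1.19, SE 0.21) and the receptor Optn at 20.9 against 35.3 TPM (-0.73, SE 0.19). Rises numbered 1 without either MGS library, 3 without either CV library or either MGS Day 32 library and 4 with length and GC corrected and falls 1 without either MGS library, 2 without CV replicate 2 and after median-of-ratios scaling and 3 without CV replicate 1 or either MGS Day 32 library and from FPKM. Calls ended for Ulk1 without either MGS library or CV replicate 1 (adjusted p = 0.05 to 0.0795) and Optn without either MGS library or CV replicate 2 (adjusted p = 0.085 to 0.0862).

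Transcription factors of mesenchyme and neural crest, which pattern the skull, limbs and meninges, gave the highest share of rises of the 36 lists. There 22 of 27 rose (81.5%, beside 22.5% of all genes), with a median of 2.35. Foxc2 stood at 133 and 129 TPM in MGS and 2.09 and 1.38 in CV (log2 difference 5.601, SE 0.25, adjusted p = 3.79e-06), and Foxd1 at 203 and 193 TPM in MGS and 5.61 and 4.51 in CV (log2 difference 5.04, SE 0.15, adjusted p = 8.08e-07). Six2 stood at 55.1 and 56.6 TPM in MGS and 1.37 and 0.893 in CV (log2 difference 4.75, SE 0.17, adjusted p = 1.29e-06) and Tbx15 at 38.5 against 1.26 TPM (4.13, SE 0.17). In these 4 genes the CV libraries held between 0.89 and 5.61 TPM. 1 member fell, and 2 without either CV Day 32 library and with no filter. The list shares Foxc1 and Tbx18 with the meningeal fibroblast markers, whose sum was 12424 and 14319 TPM in MGS and 392 and 371 TPM in CV, and their part in this list was not tested.

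Of 43 pump, exchanger and acid-base genes 15 rose (34.9%) and 11 fell (25.6%), and the falls numbered 7 without either MGS library or CV replicate 2. The shares of all genes were 22.5% risen and 26.5% fallen. FXYD proteins modulate the sodium pump. Their member Fxyd1, phospholemman, stood at 498 and 498 TPM in MGS and 38.6 and 31.5 in CV (log2 difference 3.80, SE 0.16, adjusted p = 3.18e-06), and Fxyd7 (13.3 against 0.154 TPM, 3.64, SE 0.24) and Fxyd5 (100.94 and 100.3 TPM in MGS and 5.27 and 4.93 in CV; 4.06, SE 0.11) rose.

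Whether a day 5 difference was shared by day 32 varied by gene. Of the 3341 rises 2324 were also called higher at day 32 and 450 were called lower there. Of the 3936 falls 934 were also called lower at day 32, while 1388 were called higher. The shares of all genes called higher or lower at day 32 were not set beside these counts. The counts alone therefore do not show how much sharing or turning goes beyond those shares. The comparisons at the 2 days share no library. Of the 228 genes chosen for naming, 165 were called in the test of the difference between the days, beside 62.1% of all genes. Of these 165, 41 had called differences of opposite sign, beside the 450 rises and 1388 falls given above over all genes. Trf stood at 213 against 14.2 TPM at day 5 (3.82) and 49.7 against 129 TPM at day 32 (-1.36), MGS given first, a difference between the days of 5.17, SE 0.15, adjusted p = 2.65e-06. Fxyd5 (4.06 at day 5, -1.26 at day 32; difference 5.32, SE 0.15, adjusted p = 2.56e-06) and Arhgdib, a GTPase inhibitor of blood cells (3.32 and -1.92; 5.24, SE 0.15, adjusted p = 2.56e-06) turned the same way. At day 32 the microglial markers summed to 808 and 802 TPM in MGS and 7881 and 7396 TPM in CV, the reverse of day 5, and their part in these turns was not tested.

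Genes lower in MGS at day 5 and higher at day 32 included Cdh6 (-3.33 and 2.12; difference -5.45, SE 0.33, adjusted p = 3.71e-05), the thyroid target Hr (-1.01 and 3.20; -4.21, SE 0.24, adjusted p = 2.9e-05), Adcy1 (-2.05 and 1.77; -3.83, SE 0.26, adjusted p = 6.05e-05) and methionine synthase Mtr (-1.70 and 1.92; -3.61, SE 0.26, adjusted p = 7.33e-05). For other genes no difference between the days was called. For Ptgds, the prostaglandin enzyme, it was 7.41 at day 5 and 7.41 at day 32, for Slc13a4 5.95 and 5.92, and for Cnn1 -3.77 and -3.94. The adjusted p of the difference between the days in limma was 0.99 for Ptgds (SE 0.24), 0.914 for Slc13a4 (SE 0.23) and 0.303 for Cnn1 (SE 0.14).

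**Figure D5:**
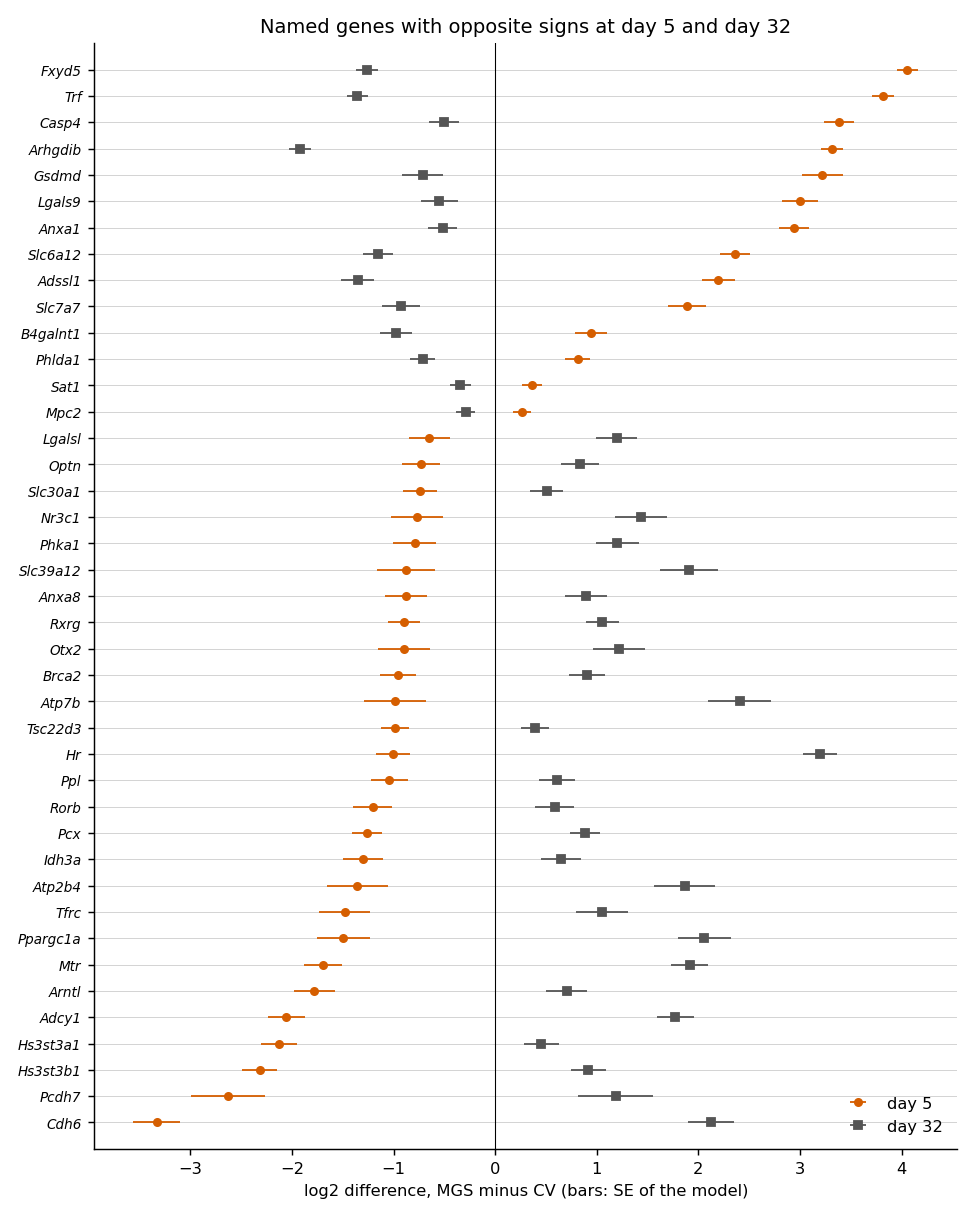
Points are the log2 difference, MGS minus CV, of the 41 named genes called with opposite signs at day 5 (orange circles) and day 32 (grey squares), with bars of 1 SE. Genes at the bottom, led by Cdh6 (-3.33 at day 5), were lower in MGS at day 5 and higher at day 32, and those at the top, led by Fxyd5 (4.06), the reverse.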

How the data were processed

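Total RNA was extracted with TRIzol and made into directional libraries that were read on an Illumina NextSeq, per the labels' protocols. The authors deposited TPM, 1 value for each of 23401 gene IDs in 8 libraries, which equals the last row of a gene ID in their table for each library. The submitters' processing notes name bcl2fastq, HISAT2 2.1.0 and StringTie 1.3.4d, with the builds mm10 and hg38 and no roles. Strand settings and annotation release are not given in the sources used here, so overlapping, antisense and near-identical genes are uncertain. The deposited FPKM served as an alternative, and the deposited coverage, a mean depth per base, gave the aligned gigabases; read counts were not used here.

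Genes with at least 1 TPM in at least 2 of 8 libraries (14866) were fitted as log2(TPM + 1) with limma 3.58.1 in R 4.3.3, with 4 group means over 8 libraries (4 residual degrees of freedom), with Benjamini-Hochberg adjustment over all genes and a threshold of 0.05. An exact permutation test of 2 against 2 cannot go below p = 0.333 and was not used. The script was tested on simulated data. Genes were named by rule: the 15 largest called rises and falls without overlap between groups outside the marker lists and genes already known to lead this comparison, the 4 largest calls of each of 37 lists and the 5 most abundant genes of each culture. Members of counts of 5 or fewer, and a few genes that illustrate a list, were named after their values were seen. The comparison and lists were chosen with earlier results of these data known. Promoters came from RefSeq, GRCm38.p6, matched by symbol, and of gene IDs matched to RefSeq by symbol and chromosome 99.86% overlapped that gene. Replicate numbers were not taken to pair the libraries in the main fit, and the labels do not say whether they do. Some genes that the rule names and 1 of the lists are not reported here.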

Additional observations from a re-analysis of the deposited data

Results flagged for a closer look

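Among the 228 genes chosen for naming, 165 had a difference between MGS and CV that itself differed between day 5 and day 32, by limma's test of the interaction with Benjamini-Hochberg adjustment over all genes, beside 62.1% of all genes. Over all genes, 450 of the 3341 rises and 1388 of the 3936 falls at day 5 were called with the opposite sign at day 32. Of the 165 named genes, the 41 below were called at both days with opposite signs. The value given for each is the log2 difference at day 5 minus that at day 32.

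Of these, 14 genes were higher in MGS at day 5 and lower at day 32. The widest gaps were those of Fxyd5 (5.32), Arhgdib (5.24), Trf (5.17), Gsdmd (3.93), Casp4 (3.89), Lgals9 (3.55) and Adssl1 (3.55). Smaller gaps were those of Slc6a12 (3.52), Anxa1 (3.46), Slc7a7 (2.81), B4galnt1 (1.92), Phlda1 (1.52), Sat1 (0.70) and Mpc2 (0.55). Microglial markers turned in the same direction, with 11 of 12 higher in MGS at day 5 and 12 of 12 lower at day 32, and their part in these values was not tested.

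The other 27 genes were lower in MGS at day 5 and higher at day 32. The widest gaps were those of Cdh6 (-5.455), Hr (-4.21), Adcy1 (-3.83), Pcdh7 (-3.81), Mtr (-3.61), Ppargc1a (-3.55), Atp7b (-3.39), Hs3st3b1 (-3.23) and Atp2b4 (-3.22). Intermediate gaps were those of Slc39a12 (-2.78), Hs3st3a1 (-2.58), Tfrc (-2.54), Arntl (-2.48), Nr3c1 (-2.21), Pcx (-2.15), Otx2 (-2.12), Phka1 (-1.996) and Idh3a (-1.95). The narrowest were those of Rxrg (-1.95), Brca2 (-1.86), Lgalsl (-1.85), Rorb (-1.79), Anxa8 (-1.77), Ppl (-1.65), Optn (-1.56), Tsc22d3 (-1.37) and Slc30a1 (-1.25). They include enzymes of the citric acid cycle and its refilling (Idh3a, Pcx), the core clock activator Arntl, and the transferrin receptor Tfrc.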

How the results depend on the processing

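The 7277 calls at day 5 became 4518 to 10070 when 1 library was left out (4518 without MGS replicate 2 and 4551 without MGS replicate 1, which leave that group with 1 library assumed to vary like the other groups), and the 9226 calls of the difference between the days became 6631 to 11445. A replicate block gave 7885 calls at day 5, but the labels do not say whether the replicate numbers pair the libraries. Correlations of deviations between same-numbered libraries ran from -0.13 to 0.44, the highest between CV at day 5 and CV at day 32. The other alternatives kept the day 5 count within 1.5 times: 7768 from FPKM, 7041 with a pseudocount of 0.1, 6178 at 5 TPM or more, 7599 with no filter, 7827 scaled by median of ratios, 8627 quantile normalized, 7948 with length and GC corrected, 7291 from summed rows and 8992 from the day 5 libraries alone. Of the 228 named genes, 187 kept sign and side of the threshold under every alternative run and 41 did not. Of 4095 gene values under alternatives 136 lost their call and 3 changed sign, all of Eef1a1 at day 5, a gene that was not called: -0.0558 with length and GC corrected, -0.129 when quantile normalized, and from -0.0291 without CV replicate 2 to 0.0881 without CV replicate 1 when a library was left out. Of 1296 list counts under alternatives 156 moved by over 1.5 times. With 2 libraries a group, 2.50 to 2.99 gigabases in CV and no read counts used, low genes and small differences are the least certain, and causes were not tested.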
